A study of Mus musculus with 140 samples.

Results

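The interstitial extracellular matrix is the meshwork that connective tissue cells secrete around themselves, and 40 of its genes were followed here in differentiating mouse embryonic stem cells. They were chosen by name as fibrillar and other collagens, adhesive and elastic fibre glycoproteins, matricellular proteins, proteoglycans, and the enzymes and inhibitors that fold, trim, cross-link or digest these proteins. On the 2 array designs used (A and B of the mouse 430 set) 38 of the 40 had at least 1 probe set that names no other gene, and each was read from the one with the highest mean signal. Fbn1 and Loxl2 were not analysed here. Of the 38 genes 36 passed a filter on low signal, of 14559 genes tested in all, and 35 of these 36 were read on the A array. Lum (lumican) and Thbs2 (thrombospondin 2) stayed below the filter, with signals of 81.7 to 288.8 and 43.7 to 227.4 over the 70 samples.

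Fibrillar collagens are made as procollagen chains that are hydroxylated and folded in the endoplasmic reticulum with the help of the collagen chaperone Serpinh1 (HSP47). After secretion their ends are trimmed, a step that Pcolce (procollagen C-endopeptidase enhancer) speeds up, and the fibres are cross-linked by lysyl oxidases. Undifferentiated embryonic stem cells make little fibrillar collagen. Type I and III collagen, decorin and periostin are known as products of mesenchyme and fibroblasts.

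The cells were the mouse embryonic stem cell line CCE. They formed 9 courses, with 1 RNA sample per course and day, 70 samples in all. In 7 courses a short hairpin RNA (shRNA) lowered Esrrb, Tbx3, Tcl1, Nanog, Sox2, Oct4 (encoded by Pou5f1) or a transcript labelled Mm343880, and cells with the empty H1P vector were the reference. These cells stayed in 1000 units/ml of LIF (leukaemia inhibitory factor, which holds off differentiation) and were sorted for GFP each day, with day 0 at 48 hours after transduction. The last course received 5 µM retinoic acid without LIF, and its labels describe no transduction, so agent, LIF and transduction cannot be told apart there. The Mm343880 and retinoic acid courses covered days 0 to 6 and the other courses days 0 to 7. No course had a replicate transduction, so every p-value measures the spread of samples around a smooth curve over days, which may be technical in part.

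In each of the 6 courses where the target could be read, its signal lay below that of the empty vector on 8 of 8 days, by 4.04-fold (Tcl1) to 9.46-fold (Esrrb) late in the course. Late means the average of the fitted curve over days 4, 5 and 6. The transcript Mm343880 was not read here, so that label was not checked. As a check of the labelled cell type, the summed signal of 6 embryonic stem cell markers (Pou5f1, Nanog, Sox2, Zfp42, Esrrb and Dppa4) stayed between 41008 and 51835 in the empty vector course and went from 45144 on day 0 to a late mean of 1015 under retinoic acid.

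Of the matrix genes that passed the late test, most were higher than in the empty vector after Esrrb, Tbx3, Sox2, Mm343880 and Tcl1 knockdown. Retinoic acid gave the most such genes, and in the Mm343880 course the balance rested on day 5. After Nanog knockdown as many were lower as higher, and after Oct4 knockdown most of those that passed were lower. A gene was called where the limma test of the late difference gave an adjusted p under 0.05 (Benjamini-Hochberg over all 14559 genes). Of the 36 matrix genes tested, Esrrb knockdown gave 13 higher and 1 lower (38.9% called, against 12.7% of all genes, 7.45% higher and 5.30% lower), with a median log2 difference of 0.52 against -0.02 over all genes. Tbx3 knockdown gave 14 higher and 2 lower (44.4% against 11.9%, 6.25% higher and 5.69% lower), but 6 and 2 without day 5 or without the spline, and 8 and 2 without day 6. Sox2 knockdown gave 13 higher and 3 lower (44.4% against 24.3%, 12.1% higher and 12.2% lower). These shares of matrix genes called were above those of all genes.

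Mm343880 knockdown gave 11 higher and 2 lower (36.1% against 14.8%, 7.57% higher and 7.21% lower), but 3 higher and 3 lower without day 5 and 4 and 1 without the spline. Tcl1 knockdown gave 8 higher and 2 lower (27.8% against 9.12%, 5.06% higher and 4.06% lower). Nanog knockdown gave 5 in each direction (27.8% against 22.0%, 12.0% higher and 10.0% lower), and its median log2 difference of 0.04 was that of all genes. Oct4 knockdown gave 1 higher and 7 lower (22.2% against 17.4%, 6.67% higher and 10.7% lower). The Nanog and Oct4 shares called over both directions were near the background, so they are no result about matrix genes as a group. Retinoic acid gave 28 higher and 1 lower (80.6% against 51.0%, 27.5% higher and 23.5% lower), with a median log2 difference of 1.75. Without day 6 it gave 20 higher and 2 lower. All 8 comparisons share the empty vector samples, so the courses below stand side by side and are not independent of each other. In RNA from whole populations, more cells that make a matrix gene and more RNA per cell cannot be told apart.

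The filter bears on these counts. Col3a1, Col11a1, Col12a1, Postn, Tnc, Dcn and Lox passed it only through retinoic acid arrays. The filter thus favoured a difference there, and their calls there are no independent support. Of the other 29 genes 21 were higher under retinoic acid. In the empty vector course alone 21 of the 36 would have passed.

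**Figure D1:**
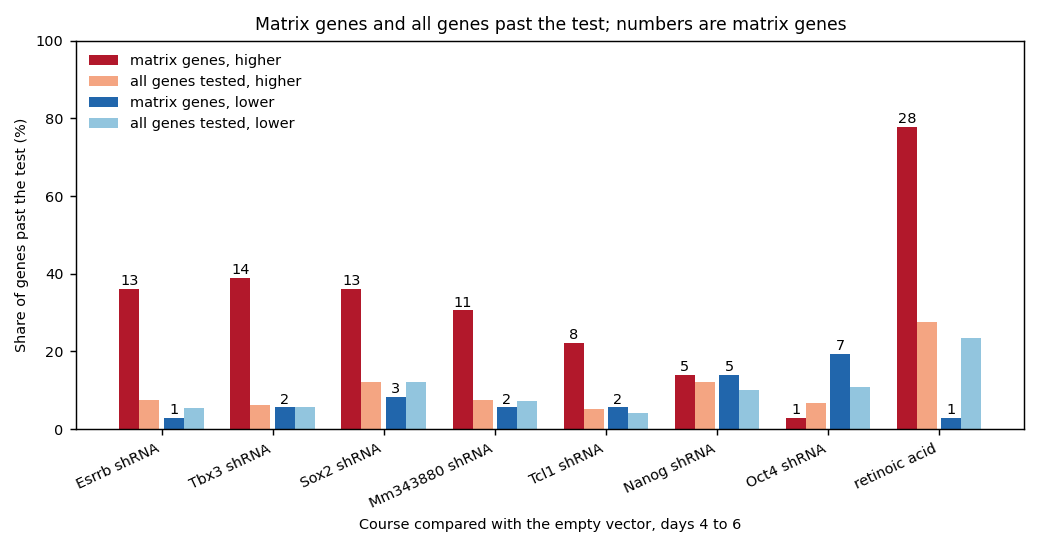
Share of genes past the test in each course against the empty vector (vertical axis, percent), for the 36 matrix genes (dark bars, with their number above) and for all 14559 genes tested (light bars), split into higher (red) and lower (blue). The dark red bars stand clear of the light ones in the Esrrb, Tbx3, Sox2, Mm343880, Tcl1 and retinoic acid courses. In the Nanog and Oct4 courses the shares called over both directions together were near those of all genes. In the Oct4 course the dark blue bar is above its light bar and the dark red bar below.

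**Figure D2:**
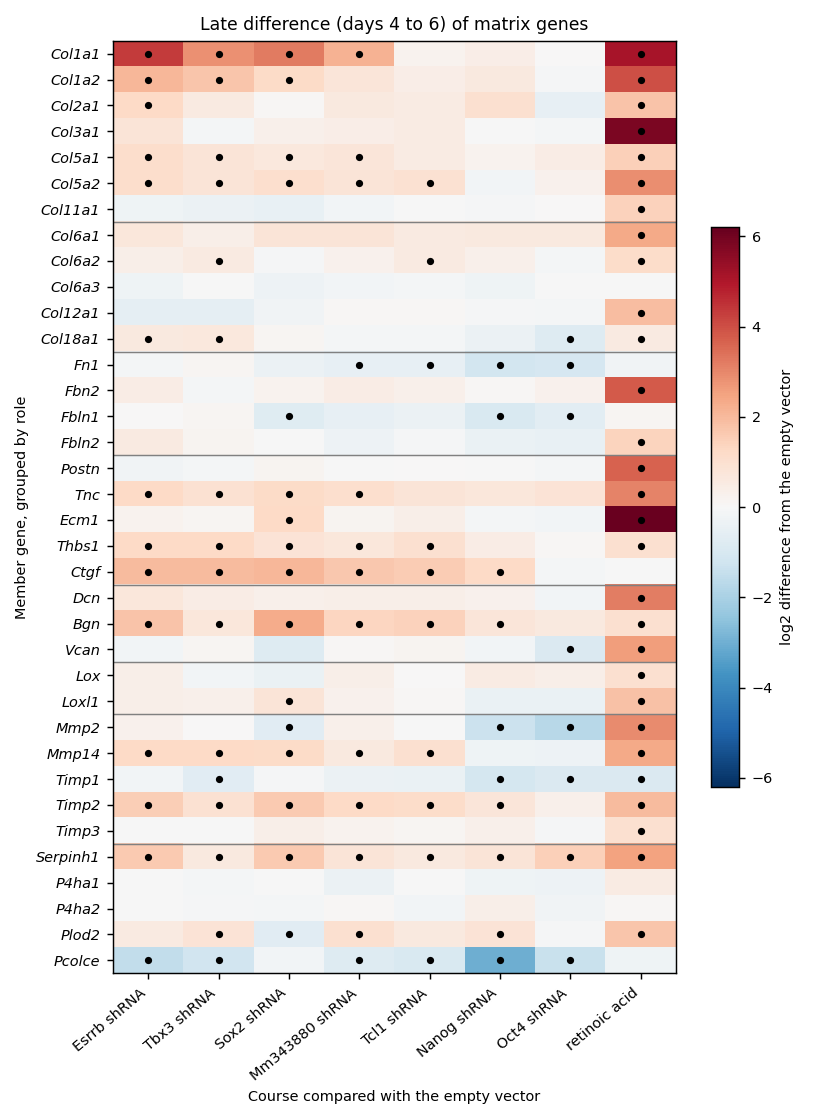
Late log2 difference from the empty vector (colour, red higher and blue lower) of the 36 matrix genes (rows, grouped by role and separated by grey lines) in 8 courses (columns); a dot marks an adjusted p under 0.05. Serpinh1 carries a dot in all 8 columns, Col1a1 in 5, and the retinoic acid column holds 28 red dots.

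Promoter sequence is shown for 7 genes on which the results below turn. Col1a2, Bgn, Serpinh1 and Timp2 were higher in several knockdown courses, Pcolce was lower, and Col3a1 and Ecm1 had the largest differences under retinoic acid. Each run is the 250 bases before the transcription start on the gene's own strand, from RefSeq on GRCm38.p6. Capitals mark the letters of 4 motifs on either strand, none of which holds another. They are the CCAAT box, the TATA box TATAAA, the GC box GGGCGG, and GGAATG, the core that TEAD factors bind.
Col1a2: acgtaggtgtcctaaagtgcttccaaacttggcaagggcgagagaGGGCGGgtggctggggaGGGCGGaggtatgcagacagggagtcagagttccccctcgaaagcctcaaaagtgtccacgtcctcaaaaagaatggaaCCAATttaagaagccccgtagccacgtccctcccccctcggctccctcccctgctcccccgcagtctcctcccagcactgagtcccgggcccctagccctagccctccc
Bgn: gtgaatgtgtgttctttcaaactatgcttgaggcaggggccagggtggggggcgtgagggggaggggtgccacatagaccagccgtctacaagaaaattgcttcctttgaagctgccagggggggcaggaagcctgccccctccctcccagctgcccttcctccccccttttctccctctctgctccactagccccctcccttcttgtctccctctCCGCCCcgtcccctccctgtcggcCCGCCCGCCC
Serpinh1: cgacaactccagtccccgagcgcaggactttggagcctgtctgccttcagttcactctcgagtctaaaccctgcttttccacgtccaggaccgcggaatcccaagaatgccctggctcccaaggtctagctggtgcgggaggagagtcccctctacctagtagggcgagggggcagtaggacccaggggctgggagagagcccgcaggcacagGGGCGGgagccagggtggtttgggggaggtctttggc
Timp2: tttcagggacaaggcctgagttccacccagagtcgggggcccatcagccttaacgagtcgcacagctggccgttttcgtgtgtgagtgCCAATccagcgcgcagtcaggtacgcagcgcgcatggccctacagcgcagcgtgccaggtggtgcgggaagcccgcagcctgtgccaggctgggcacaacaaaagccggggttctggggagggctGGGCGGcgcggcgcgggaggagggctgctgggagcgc
Pcolce: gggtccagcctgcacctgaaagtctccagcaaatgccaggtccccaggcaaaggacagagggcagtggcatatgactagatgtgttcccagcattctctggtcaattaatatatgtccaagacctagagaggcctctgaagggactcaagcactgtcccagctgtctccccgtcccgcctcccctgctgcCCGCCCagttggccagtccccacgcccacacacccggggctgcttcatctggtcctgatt
Col3a1: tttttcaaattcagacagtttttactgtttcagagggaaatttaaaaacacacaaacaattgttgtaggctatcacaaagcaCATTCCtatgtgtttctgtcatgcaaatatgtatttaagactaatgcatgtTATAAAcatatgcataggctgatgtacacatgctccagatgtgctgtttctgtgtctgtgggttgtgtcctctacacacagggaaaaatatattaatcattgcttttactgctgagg
Ecm1: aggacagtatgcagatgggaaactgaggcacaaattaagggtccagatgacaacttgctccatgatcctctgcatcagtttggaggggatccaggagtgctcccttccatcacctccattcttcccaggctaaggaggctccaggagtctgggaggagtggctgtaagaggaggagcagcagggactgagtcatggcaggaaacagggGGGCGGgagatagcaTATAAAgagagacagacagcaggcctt
These windows lie at chr6:4505368-4505617 (Col1a2, plus strand), chrX:73483351-73483600 (Bgn, plus), chr7:99353240-99353489 (Serpinh1, minus), chr11:118355412-118355661 (Timp2, minus), chr5:137611405-137611654 (Pcolce, minus), chr1:45311288-45311537 (Col3a1, plus) and chr3:95739570-95739819 (Ecm1, minus). GGGCGG stood in all of them but that of Col3a1, whether the gene was higher or lower. Over the 29 windows of 24 matrix genes that the RefSeq table holds, 21 (72.4%) had GGGCGG, against 32.7% of 32851 promoters. CCAAT stood in 8 of 29 (33.8% of all promoters), TATAAA in 6 (12.4%) and GGAATG in 4 (12.6%). Col3a1 and Ecm1 both had TATAAA, at 117 and 27 bases before the start. A match is a description of letters and not of a bound site.

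Among the fibrillar collagens, which form the striated fibres of connective tissue, the chains of type I collagen had the largest differences in the knockdown courses. In the empty vector course the signal of Col1a1 (the alpha 1 chain of type I collagen) stayed between 7.0 and 23.0 on all 8 days, with a median of 9.25. After Esrrb knockdown it was 13.9, 6.7, 93.9, 451.1, 1169.7, 1562.1, 1676.3 and 1119.8 from day 0 to day 7. Every sample from day 2 on was above all empty vector samples.

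Sox2 knockdown gave Col1a1 signals of 16.5, 19.8, 225.6, 969.1, 1114.1, 444.7, 448.7 and 411.1, so the peak came on day 4 and the level then went down. Tbx3 knockdown gave 7.3, 9.5, 9.7, 18.9, 127.8, 642.4, 1421.0 and 1225.3. Mm343880 knockdown gave 8.5, 10.6, 9.1, 11.4, 35.1, 528.8 and 572.9. These courses thus left the empty vector range on day 2 (Esrrb and Sox2) or day 4 (Tbx3 and Mm343880). Tcl1 knockdown ran from 13.0 to 98.3, its highest value on day 7, Nanog knockdown from 8.9 to 92.7 with its highest on day 4, and Oct4 knockdown from 6.9 to 35.6. Those ranges overlapped that of the empty vector.

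Late in the course, Col1a1 was higher than in the empty vector on the log2 scale by 4.34 after Esrrb knockdown (SE 0.35, limma adjusted p = 2.5e-12), 3.23 after Sox2 knockdown (SE 0.35, 1.0e-09), 2.83 after Tbx3 knockdown (SE 0.35, 2.3e-07) and 2.14 after Mm343880 knockdown (SE 0.35, 2.9e-05). The difference was 0.41 after Nanog, 0.22 after Tcl1 and 0.03 after Oct4 knockdown, none past the test. Directly compared, Esrrb knockdown was higher than Sox2 knockdown by 1.10 (SE 0.35, 0.026) and than Tcl1 knockdown by 4.11. Between Sox2 and Tbx3 knockdown the difference was 0.41 and did not pass.

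The other probe set of Col1a1 read far smaller differences. Its empty vector signals ran from 111.7 to 252.2 and those after Esrrb knockdown from 86.2 to 522.8. Its late log2 differences were 0.85 after Esrrb, 0.54 after Sox2, 0.39 after Tbx3 and 0.48 after Mm343880 knockdown, and 2.60 under retinoic acid. With it in place of the main probe set, the Sox2, Tbx3 and Mm343880 calls were lost and the Esrrb and retinoic acid calls were kept.

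Col1a2, the alpha 2 chain of the same fibre, had 351.8 to 471.0 in the empty vector course (median 399.1). After Esrrb knockdown it was 325.3, 391.7, 549.6, 1178.5, 2333.2, 1601.2, 1840.9 and 1522.6, and after Tbx3 knockdown 349.8, 399.1, 384.1, 571.2, 544.5, 1670.7, 3577.1 and 4003.2. Sox2 knockdown gave 434.5 to 1641.2 with its highest value on day 4. In each of these courses all samples from day 3 on lay above the empty vector range. The late log2 differences were 2.05 (SE 0.27, limma adjusted p = 2.9e-07), 1.71 (SE 0.27, 2.2e-05) and 1.18 (SE 0.27, 9.9e-04), and these calls held in every alternative run. Mm343880 knockdown ran from 321.1 to 770.8 (late difference 0.77, adjusted p = 0.051). Tcl1 (397.8 to 816.3), Nanog (321.4 to 774.5) and Oct4 knockdown (245.8 to 509.4) did not pass.

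The minor fibrillar chains Col5a1 and Col5a2, which start and thin type I fibres, moved less. Col5a2 was higher in 5 knockdown courses, by 0.79 (Tbx3) to 1.08 (Esrrb), and Col5a1 in 4, by 0.64 (Sox2) to 1.09 (Esrrb). Of these 9 calls only those of both chains after Esrrb knockdown and of Col5a2 after Sox2 knockdown held when each day was left out in turn. The other 6 lost the call without day 4, 5 or 6, with log2 differences of 0.50 to 1.03 then. Col2a1, the cartilage collagen, was higher after Esrrb knockdown only among the knockdown courses tested against the empty vector (1.24, SE 0.37, limma adjusted p = 0.019), and not without day 3, 5 or 6 (1.05 to 1.47). Col3a1 and Col11a1 passed in no knockdown course.

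Collagen VI, which forms beaded filaments around cells, and the other nonfibrillar collagens showed few differences after knockdown. Col6a1 and Col6a3 passed in none of the 7 knockdown courses, and the calls of Col6a2 after Tbx3 (0.55) and Tcl1 knockdown (0.57) were lost under most alternatives. Col6a2 was read from a probe set type that can cross-hybridise. Col18a1, whose cleaved end is endostatin, went both ways. Its empty vector signals were 4369 to 6016.6, with a median of 4884.45. After Esrrb knockdown they were 6844.5 to 12862.4 and after Tbx3 knockdown 6570.8 to 11321, with every sample above the empty vector range. After Oct4 knockdown they went from at most 6427.3 to 2331.5 at the lowest, below that range from day 4 on. The late log2 difference was 0.62 after Esrrb knockdown (SE 0.16, limma adjusted p = 4.3e-03), 0.67 after Tbx3 knockdown (SE 0.16, 2.2e-03) and -0.79 after Oct4 knockdown (SE 0.16, 1.6e-04). The Esrrb and Tbx3 calls were lost without day 5 (0.51 and 0.64), and the Oct4 call held in every alternative.

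Ctgf (connective tissue growth factor, a matricellular protein known to be induced by TGF-beta and YAP) was higher in 6 of the 7 knockdown courses. In the empty vector course its signal ran from 712.1 to 1387.1, with a median of 960.7. After Nanog knockdown it was 2780.4, 4631.8, 5338.4, 4700.4, 2973.7, 1970.4, 1709.9 and 1898.8, above the empty vector range from day 0 and highest on day 2. Esrrb knockdown gave 1563.2, 2748.6, 4474.9, 5070.4, 4698.4, 3204.3, 3119.9 and 2634.3, and Tbx3 knockdown 1462.4 to 4209, both above that range from day 0. Sox2 knockdown (1035.6 to 4791.6) left the range on day 1, Tcl1 knockdown (1106.1 to 2890.3) on day 2 and Mm343880 knockdown (820 to 4074.5) on day 3. Oct4 knockdown kept it between 469.9 and 924.3.

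Late log2 differences of Ctgf were 2.06 (Sox2, SE 0.19, limma adjusted p = 2.6e-11), 1.97 (Esrrb), 1.95 (Tbx3), 1.69 (Mm343880), 1.58 (Tcl1) and 1.25 (Nanog, SE 0.19, 3.3e-06), against -0.13 for Oct4 knockdown. All 6 calls held in every alternative. Directly compared, Oct4 knockdown was lower than each of the other 6 knockdown courses, by 1.38 (Nanog) to 2.19 (Sox2) on the log2 scale, all past the test. Within the Nanog course Ctgf fell from the early days (0 and 1) to the late days by 0.69 (SE 0.22, 0.030), while within the Esrrb, Mm343880, Sox2, Tbx3 and Tcl1 courses it rose by 0.76 to 1.70.

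Other matricellular genes were higher in fewer courses. Thbs1, an adhesion-modulating glycoprotein that can activate latent TGF-beta, was higher in 5 (Esrrb 1.24, Tbx3 1.22, Tcl1 0.99, Sox2 0.84, Mm343880 0.70). Its Esrrb, Tbx3 and Tcl1 calls held in every alternative, and its second probe set read 1.84, 1.86 and 1.21 there. Tnc (tenascin C) passed in the Esrrb, Sox2, Mm343880 and Tbx3 courses (0.96 to 1.21) at signals of 22.6 to 246.6, and only the Sox2 call held without each day. The empty vector signals of Tnc were 28.3 to 137.3, and lowest on days 4 to 6 (36.4, 40.7 and 28.3), where the late difference is read. Without day 6 the Mm343880 difference was -0.05. Ecm1, a secreted glycoprotein of skin and bone, was higher after Sox2 knockdown (1.23, SE 0.28, limma adjusted p = 6.9e-04), with signals of 314.2 to 1021.2 against 171.7 to 375.3 in the empty vector course.

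**Figure D3:**
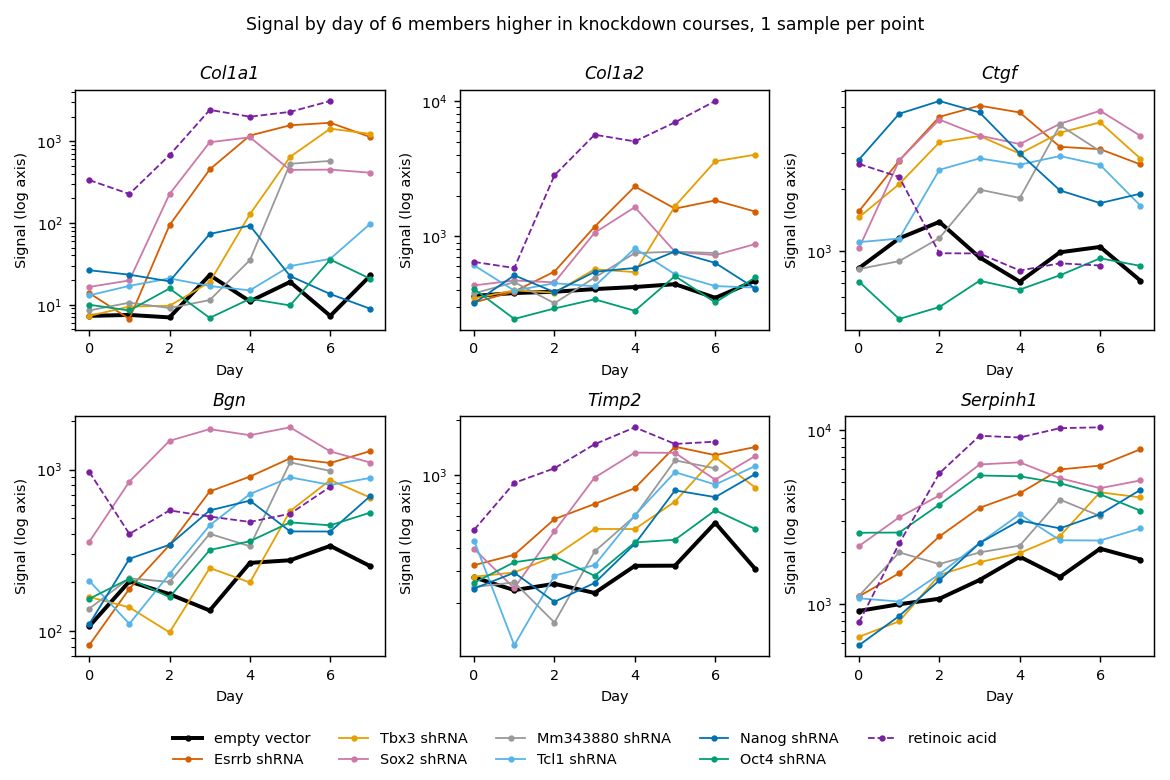
Signal (log axis) by day for Col1a1, Col1a2, Ctgf, Bgn, Timp2 and Serpinh1 in the 9 courses, 1 sample per point; the thick black line is the empty vector and the dashed line retinoic acid. Col1a1 stays at or under 23.0 in the empty vector course and reaches 1676.3 after Esrrb knockdown, while Ctgf is highest after Nanog knockdown on day 2 (5338.4).

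Of the proteoglycans, which bind collagen fibres and growth factors, Bgn (biglycan) was the gene with differences in most courses. Its empty vector signals were 106.9 to 336.9, with a median of 227.4. Sox2 knockdown gave 356.4, 841.8, 1507.4, 1779.7, 1632.6, 1826.3, 1295.1 and 1105, above the empty vector range from day 0. Esrrb knockdown ran from 81.7 to 1302.6, above that range from day 2. Tcl1 knockdown (110.9 to 895.3) left it on day 3 and Tbx3 knockdown (98.2 to 862) on day 5, and Mm343880 knockdown (137.6 to 1107.1) was above it on day 3 and again from day 5. The late log2 difference was 2.30 after Sox2 knockdown (SE 0.23, limma adjusted p = 1.9e-10), 1.79 after Esrrb, 1.44 after Tcl1 and 1.31 after Mm343880 knockdown. It was 0.73 after Nanog knockdown (110.1 to 687.6) and 0.70 after Tbx3 knockdown, and 0.59 after Oct4 knockdown (158.3 to 542; adjusted p = 0.079), which did not pass. The Mm343880, Nanog and Tbx3 calls were each lost when day 5 was left out, and the last 2 on other days too (0.59 to 0.95). Bgn rose from early to late days within all 7 knockdown courses, by 1.09 (Oct4) to 2.61 (Esrrb), and did not pass within the empty vector course.

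Vcan (versican), a large proteoglycan that swells the matrix, was lower after Oct4 knockdown (-0.90, SE 0.31, limma adjusted p = 0.036), at signals of 45.8 to 428 against 160.2 to 318. That call was lost without day 4, 5 or 6 (-0.96 to -0.74), without the spline and with the mean of all its probe sets. With its probe set of highest mean rank the difference was 0.041 and did not pass. Dcn (decorin) stayed between 17.4 and 343.1 in the knockdown courses and passed in none.

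Serpinh1 was the 1 matrix gene higher in all 7 knockdown courses. In the empty vector course it went from 914.4 on day 0 to 2081.8 on day 6 (median 1403.55) and rose from early to late days by 0.83 (SE 0.19, limma adjusted p = 0.019), the 1 matrix gene called within that course (0.776% of all genes were, 0.515% upward and 0.261% downward). That call was lost without day 0, 1, 2, 3, 4 or 6 (0.72 to 0.92), without the spline and with the empty vector course alone. Sox2 knockdown gave 2155.5, 3150, 4208.7, 6337.4, 6517.4, 5281.1, 4632.4 and 5127.9, and Oct4 knockdown 2568.5, 2575.9, 3728.8, 5479.1, 5418.2, 4945.7, 4269.7 and 3441.9. Both courses lay above the empty vector range on all 8 days. Esrrb knockdown went from 1108.1 to 7744.4 and was above that range from day 2. The others ran from 580.5 to 4527.2 (Nanog), 649.3 to 4386.3 (Tbx3), 1115.5 to 3980.6 (Mm343880) and 1034.1 to 3282.6 (Tcl1).

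The late log2 differences of Serpinh1 were 1.64 (Sox2, SE 0.17, limma adjusted p = 2.1e-10), 1.63 (Esrrb, 6.7e-10) and 1.48 (Oct4, 4.4e-09), then 0.79 (Nanog), 0.78 (Mm343880), 0.63 (Tbx3) and 0.60 (Tcl1). Directly compared, each of Sox2, Esrrb and Oct4 knockdown was higher than each of Nanog, Mm343880, Tbx3 and Tcl1 knockdown, by 0.70 to 1.04. The Mm343880, Tbx3 and Tcl1 calls were lost without day 5 (0.30 to 0.56).

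Pcolce was the matrix gene lower in most courses. Empty vector signals of Pcolce were 3571.3 to 5064.8, with a median of 4236.15. Nanog knockdown gave 2049.5, 1867.2, 1124.9, 846.8, 844.5, 373.8, 243.8 and 607, below that range from day 0. Esrrb knockdown went from 3548.7 on day 0 to 1142.7 on day 5, and Tbx3 knockdown ran from 1440.8 to 3643.2. Oct4 (1512.6 to 4468.3) and Tcl1 knockdown (1851 to 4791.8) lay below the empty vector range from day 2 on and Mm343880 knockdown (2314.8 to 6194.2) from day 3 on. Sox2 knockdown, at 3295.9 to 5606.8, overlapped it. Late log2 differences were -3.04 (Nanog, SE 0.20, limma adjusted p = 1.6e-15), -1.53 (Esrrb), -1.37 (Oct4), -1.21 (Tbx3), -0.96 (Tcl1) and -0.78 (Mm343880), against -0.19 for Sox2 knockdown. Nanog knockdown was lower than each of the other 6 knockdown courses, by 1.51 (Esrrb) to 2.85 (Sox2). Without day 6 the Mm343880 difference was -0.44 and did not pass. The other probe set of Pcolce read -2.25 after Nanog knockdown and -0.15 after Sox2 knockdown.

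Of the enzymes that hydroxylate collagen, P4ha1 and P4ha2 (prolyl hydroxylase subunits) passed in none of the 8 late comparisons. Plod2, the lysyl hydroxylase of collagen ends, went both ways, at 388.9 to 1477.9 in the empty vector course (median 693.55). Its signal was 908.1 to 1958.3 after Mm343880, 922.2 to 1939.2 after Nanog and 621.6 to 1469.7 after Tbx3 knockdown, where the late log2 difference was 0.99, 0.83 and 0.83. After Sox2 knockdown it was 206.6 to 565 and the difference was -0.72. The Esrrb (398.6 to 1148.8), Tcl1 (669.2 to 1449.7) and Oct4 courses (513.2 to 1287.5) did not pass. All ranges overlapped that of the empty vector, and each of the 4 calls was lost when day 5 was left out, the Nanog difference then being 0.46. The direct difference between Sox2 and Tbx3 knockdown was -1.55 (SE 0.25, limma adjusted p = 6.0e-06). Among cross-linking enzymes, Loxl1 was higher after Sox2 knockdown (0.79, SE 0.19, 1.9e-03) and Lox passed in no knockdown course.

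Matrix proteases and their inhibitors differed by gene. Timp2, which inhibits metalloproteases and also helps to activate Mmp2, was higher in 6 knockdown courses. Without a hairpin, in the empty vector course, it had signals of 226.9 to 548, with a median of 291. It reached 1427.8 after Esrrb, 1325.1 after Sox2, 1252.1 after Tbx3, 1201.5 after Mm343880, 1119.9 after Tcl1 and 1012.9 after Nanog knockdown, from lowest values of 117.6 to 321.7, and ran from 258.2 to 641.4 after Oct4 knockdown. The late log2 difference was 1.65 (Sox2, SE 0.23, limma adjusted p = 3.9e-07), 1.54 (Esrrb), 1.24 (Mm343880), 1.11 (Tcl1), 0.95 (Tbx3) and 0.73 (Nanog), against 0.32 for Oct4 knockdown. The Esrrb and Sox2 calls held in every alternative, and the other 4 were lost without day 5 or with the mean of all its probe sets. The 5 other probe sets of Timp2 read -0.38 to 1.11 in the knockdown courses.

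Mmp14, the membrane-bound metalloprotease that cleaves collagen and activates Mmp2, was higher after Esrrb (1.23, SE 0.19, limma adjusted p = 3.7e-06), Tbx3 (1.23), Sox2 (1.17), Tcl1 (0.98) and Mm343880 knockdown (0.60). Its empty vector signals were 489.7 to 901.9, and all 8 Tcl1 samples, at 1154.8 to 1488.5, lay above them. The Mm343880 call was lost without day 4, 5 or 6 (0.60 to 0.87), and the other 4 held in every alternative. Mmp14 did not pass after Nanog (-0.26) and Oct4 knockdown (-0.33).

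Mmp2 (gelatinase A) was lower in 3 courses. Signals in the empty vector course were 554.2 to 1592.4, with a median of 955.35. Oct4 knockdown gave 236.8, 267.6, 284, 377.1, 268, 410.8, 297.1 and 659.1, so 7 of its 8 samples lay below every empty vector sample. Nanog knockdown went from 1351.4 on day 1 to 270.3 on day 6, and Sox2 knockdown ran from 558.8 to 1294.6. The late log2 difference was -1.71 (Oct4, SE 0.25, limma adjusted p = 9.3e-07), -1.32 (Nanog, SE 0.25, 7.1e-05) and -0.71 (Sox2, SE 0.25, 0.029). The Sox2 call was lost without day 2, 5 or 6 (-0.72 to -0.59). Esrrb (992.1 to 2525.9), Tbx3 (1022.4 to 1878.5), Mm343880 (570.8 to 1860.4) and Tcl1 knockdown (494.2 to 1861.8) had differences of -0.01 to 0.29.

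Timp1, an inhibitor with a broad range of metalloprotease targets, was lower after Nanog (-1.11, SE 0.14, limma adjusted p = 8.4e-08), Oct4 (-0.88) and Tbx3 knockdown (-0.70) and under retinoic acid (-0.90). In the empty vector course it was 1972.8 to 2893.5 (median 2071.1). All samples of these courses lay below that, at 910.2 to 1614.1, 1102.5 to 1946.1, 1149.5 to 1774.9 and 1135.3 to 1654.5. The calls held in every alternative. Esrrb (1480.3 to 2637.4), Sox2 (1013.8 to 2708.1), Mm343880 (1372.2 to 2070.4) and Tcl1 knockdown (1517 to 2073) did not pass.

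Among the adhesive glycoproteins, Fn1 (fibronectin, the integrin ligand on which other matrix proteins assemble) was higher in none of the 8 late comparisons. Its empty vector signals were 4971.3 to 11406.5, with a median of 6974.5. Oct4 knockdown gave 3480.7 to 5833.7 and lay below the empty vector range from day 1, and Nanog knockdown went from 7290.4 on day 0 to 3081.2 on day 5. The late log2 difference was -1.14 (Nanog, SE 0.17, limma adjusted p = 1.2e-06) and -1.04 (Oct4, SE 0.17, 6.0e-06), and both calls held in every alternative. Mm343880 (5369.8 to 8548.1, -0.52) and Tcl1 knockdown (5043.9 to 8436.9, -0.51) passed as well, but each call was lost without any one of days 3, 4 and 6 (-0.55 to -0.13 over the days that ended a call). The Esrrb (6200.1 to 10029.3), Tbx3 (7162.9 to 11209.8), Sox2 (5574.3 to 7668.8) and retinoic acid courses (6700.5 to 9081) did not pass.

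Fbln1 (fibulin 1, which binds fibronectin and elastic fibres) was lower after Nanog (-0.96, SE 0.20, limma adjusted p = 2.3e-04), Sox2 (-0.76) and Oct4 knockdown (-0.67). Its signals there were 688.2 to 1662.9 against 1423 to 2485.8. The Oct4 call was lost without day 4 or 6 (-0.58 and -0.57), and with its probe set of highest mean rank all 3 were lost, the Sox2 difference being 0.22. Fbln2 and Fbn2 (fibrillin 2) passed in no knockdown course.

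**Figure D4:**
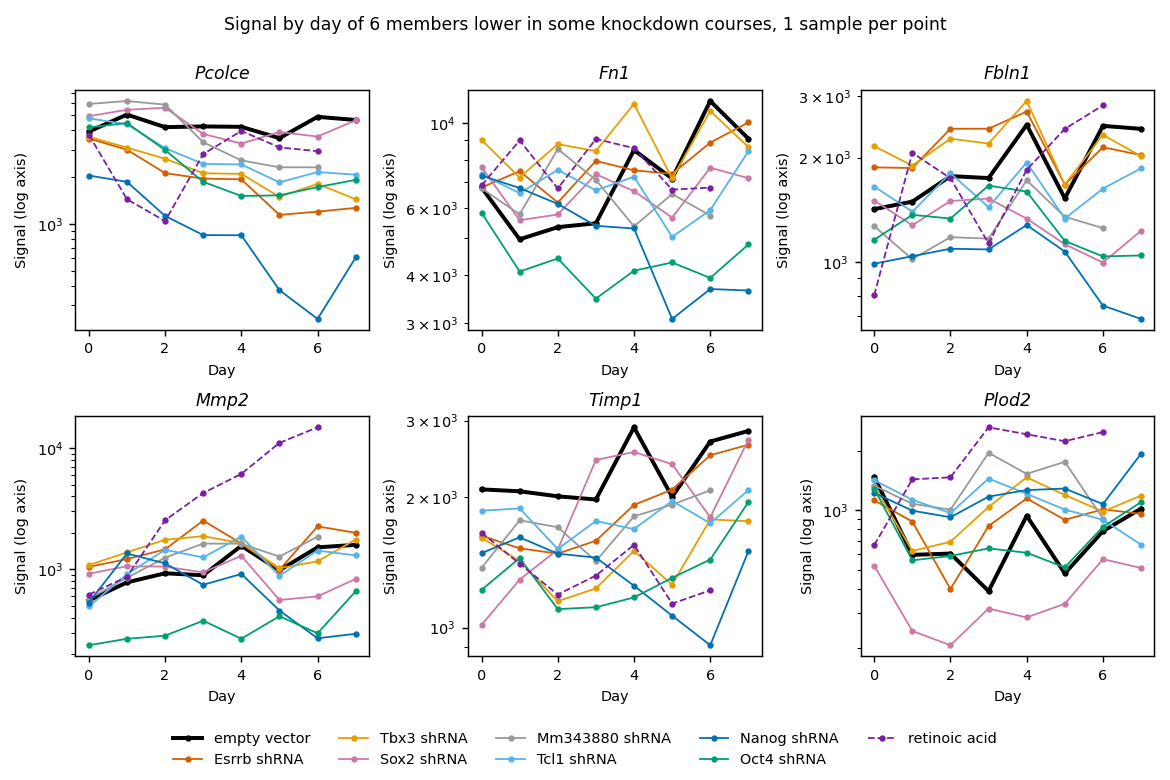
Signal (log axis) by day for Pcolce, Fn1, Fbln1, Mmp2, Timp1 and Plod2 in the 9 courses, 1 sample per point; the thick black line is the empty vector and the dashed line retinoic acid. Pcolce goes down to 243.8 after Nanog knockdown, and Mmp2 lies between 236.8 and 659.1 after Oct4 knockdown while it reaches 14824.4 under retinoic acid.

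Under retinoic acid Ecm1 and Col3a1 had the largest late differences from the empty vector. Ecm1 was 300.7, 279.6, 1325.7, 14136.5, 22715.6, 22096.2 and 24341.9 from day 0 to day 6, and Col3a1 (type III collagen, the fibre of soft tissues) 77.9, 86.5, 344.9, 3778.6, 8675, 7102.6 and 9140. In the 8 other courses Col3a1 stayed between 28 and 278.1. Postn (periostin, a matricellular protein of mesenchyme) was 17.5, 11.1, 14.8, 151.2, 504.5, 1337.3 and 1669.7, against at most 105.9 elsewhere. These genes left the range of the other courses on day 2 (Ecm1 and Col3a1) or day 3 (Postn).

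Late in the course, the log2 difference from the empty vector was 6.15 for Ecm1 (SE 0.28, limma adjusted p = 2.5e-22), 5.83 for Col3a1 (SE 0.31, 5.9e-20) and 3.66 for Postn (SE 0.23, 2.2e-17). Fbn2 was higher by 3.78, with 96.5 on day 0 and 1730.7 on day 6, Dcn by 3.17 (29.4 and 865.4) and Vcan by 2.61 (192.2 and 2407.9). Mmp2 went from 618.9 to 14824.4, a late difference of 2.95 (SE 0.25, 1.1e-13), while Fn1 (-0.23) and Pcolce (-0.25) did not pass. From day 1 to day 6 Pcolce was 1442.5, 1041.1, 2820.2, 3973.2, 3112.4 and 2942.1, below every empty vector sample except on day 4. In all, 10 genes were called in none of the 7 knockdown courses and higher under retinoic acid (Col11a1, Col12a1, Col3a1, Col6a1, Dcn, Fbln2, Lox, Postn, Timp3 and Fbn2), a pattern that 12.3% of all genes tested had. Of these 10, Col11a1, Col12a1, Col3a1, Dcn, Lox and Postn passed the filter only through retinoic acid arrays, so the count supports nothing about matrix genes as a group. The calls of Col12a1, Fbln2, Lox and Timp3 were lost without day 6 (0.33 to 2.39 over the days left out that ended a call). Another Dcn probe set read -0.05, and with another Vcan probe set the Vcan call was lost. Only Col6a3, P4ha1 and P4ha2 passed in none of the 8 late comparisons.

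**Figure D5:**
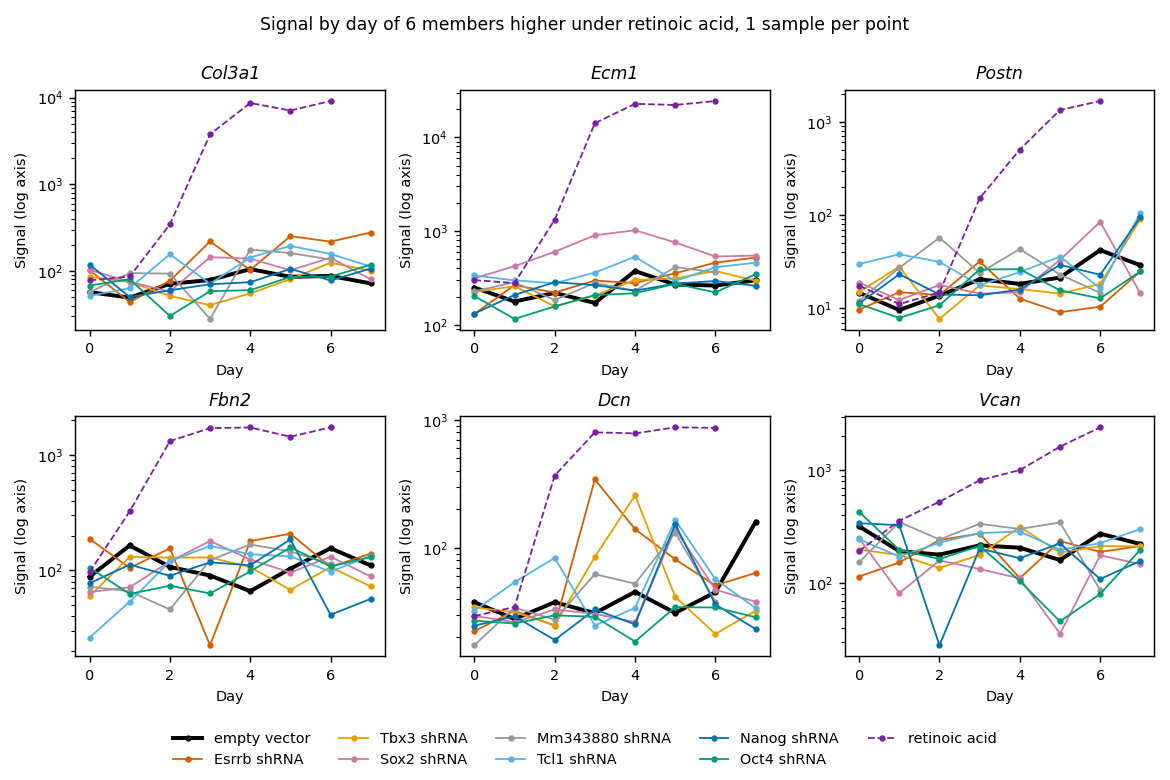
Signal (log axis) by day for Col3a1, Ecm1, Postn, Fbn2, Dcn and Vcan in the 9 courses, 1 sample per point; the thick black line is the empty vector and the dashed line retinoic acid. From day 3 on the dashed line lies above all other courses in every panel, with Ecm1 reaching 24341.9 and Col3a1 9140.

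Some genes were high under retinoic acid from day 0. Col1a1 was 334.5, 225.9, 674.7, 2408.8, 1990.2, 2279.6 and 3092.4, and Col1a2 647.7, 583.8, 2821.2, 5621.0, 5015.1, 6940.8 and 9959.6. Their late log2 differences were 5.11 (SE 0.35, limma adjusted p = 3.6e-16) and 3.98 (SE 0.28, 3.5e-16), but their changes within the course were smaller, at 2.82 and 3.24. Bgn was 969.2 on day 0 and 399.8 to 782.5 afterwards, Tnc 471.5 on day 0, Col5a2 649.1, Thbs1 586.5 and Timp2 501.6. Ctgf was 2647.2, 2290, 977.8, 975.3, 806.3, 873.7 and 852.6. It fell within the course by 1.37 (SE 0.22, 1.9e-06) and was late at the level of the empty vector (-0.04).

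Beside these day 0 values stand those of fibroblast and mesenchyme markers (Pdgfra, Pdgfrb, Thy1, Twist1, Prrx1, Snai2, S100a4, Acta2, Tagln and Vim). Their summed signal was 18165 in the retinoic acid sample of day 0, against 10007 to 12739 over all empty vector days, with Acta2 at 4787 against 795 and S100a4 at 394 against 61 on day 0. Snai2 (60) and Twist1 (28) were low in that sample. The part of such cells in the day 0 values was not tested. Without the day 0 samples of all courses the late difference under retinoic acid gave 27 higher and 1 lower, and the change within the course 19 higher and 1 lower against 27 and 1 with them (33.5% of all genes, 18.6% upward and 14.9% downward).

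Compared with the mean of the 7 knockdown courses, 29 matrix genes were higher under retinoic acid and 2 lower (54.6% of all genes were called, 30.3% higher and 24.3% lower), a comparison added after the values were seen. Without day 6 the counts were 19 and 2. Among the 29 were Col3a1, Col11a1, Col12a1, Postn, Tnc, Dcn and Lox, which passed the filter only through retinoic acid arrays. For these the filter favoured a difference there, so their calls are no independent support. The largest differences were 5.89 for Ecm1, 5.58 for Col3a1, 3.72 for Postn, 3.54 for Fbn2 and 3.40 for Mmp2. Ctgf (-1.52, SE 0.15, limma adjusted p = 6.1e-12) and Timp1 (-0.37, SE 0.11, 4.0e-03) were the 2 lower, and the Timp1 call was lost without day 5 (-0.21, adjusted p = 0.24). Quantile normalization moved the median of all genes in the late retinoic acid difference from 0.04 to -0.21 and left 27 matrix genes higher and 1 lower.

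The same markers were also read in the knockdown courses. Matrix genes higher numbered 13 (Esrrb), 11 (Mm343880), 13 (Sox2), 8 (Tcl1), 14 (Tbx3), 1 (Oct4) and 5 (Nanog), and 28 under retinoic acid. The late mean of the summed fibroblast and mesenchyme markers was 45593 after Esrrb, 41570 after Mm343880, 36686 after Sox2, 32738 after Tcl1, 18097 after Tbx3, 17157 after Oct4 and 11922 after Nanog knockdown, against 11399 in the empty vector course and 44050 under retinoic acid. Tagln, an actin-binding protein of smooth muscle that stress fibre formation also raises, was higher in all 7 courses, by 1.63 (Oct4) to 3.95 (Sox2). Of 8 markers that passed the filter, 2 to 5 were higher per knockdown course and 7 under retinoic acid. Of all genes 5.06% (Tcl1) to 12.1% (Sox2) were higher per knockdown course and 27.5% under retinoic acid. Thy1 had late means of 220.5 to 427.1 in the knockdown courses and 310.9 under retinoic acid, below 594.5 in the empty vector course. Pdgfra ran from 97.3 (Sox2) to 376.0 (Nanog) in the knockdown courses, against 152.8. The late mean of Twist1 was 13 to 130 in the knockdown courses and 1220 under retinoic acid, and that of Snai2 13 to 68 and 1481. The late mean of Col1a1 was 27.03 after Tcl1 knockdown and 669.2 after Sox2 knockdown. The part of these cells in the matrix differences was not tested.

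Of 8 trophectoderm markers (Cdx2, Eomes, Hand1, Krt7, Krt8, Krt18, Krt19 and Tfap2c) 5 to 8 were higher in every knockdown course. The share of all genes higher was 5.06% (Tcl1) to 12.1% (Sox2). The late summed mean of these markers was 69294 after Nanog, 65788 after Sox2, 59831 after Oct4, 38618 after Esrrb, 25400 after Mm343880, 23225 after Tbx3 and 16959 after Tcl1 knockdown, against 5683 in the empty vector course. Parietal endoderm markers reached 4365 after Nanog knockdown and 10882 under retinoic acid against 1871, and endothelial and blood markers stayed between 1062 and 1706 in all late means. Their part in the matrix differences was not tested.

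Set against the early days (0 and 1) of their own course, 13 matrix genes rose and 1 fell after Esrrb knockdown, where 6.66% of all genes were called (5.02% upward and 1.64% downward). Tbx3 knockdown gave 11 and 1 (4.75%, 3.70% upward and 1.04% downward), and Mm343880 knockdown 9 and 1 (9.24%, 5.66% upward and 3.58% downward). Sox2 knockdown gave 8 and 1 (7.74%, 4.53% upward and 3.21% downward), and Tcl1 knockdown 7 and 1 (2.27%, 1.72% upward and 0.556% downward). Nanog knockdown gave 5 and 4 (10.8%, 6.34% upward and 4.50% downward), and Oct4 knockdown 3 and 3 (8.38%, 4.33% upward and 4.05% downward). Without day 0, which left day 1 as the only early sample, 7 rose and 0 fell after Esrrb knockdown. The counts were then 1 and 0 after Tbx3, 2 and 0 after Mm343880, 4 and 0 after Sox2 and 4 and 0 after Tcl1 knockdown. They were 1 and 1 after Nanog and 2 and 1 after Oct4 knockdown. Col1a1 rose by 4.33 after Esrrb, 3.01 after Sox2, 2.98 after Tbx3 and 2.25 after Mm343880 knockdown. Pcolce fell by 1.94 after Nanog, 1.40 after Oct4, 1.34 after Mm343880, 1.18 after Esrrb, 1.08 after Tcl1 and 0.92 after Tbx3 knockdown. Vcan fell by 1.35 after Oct4 knockdown. The sizes of these changes do not use the empty vector samples, but their SE and calls rest on a spread estimated from all 9 courses.

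When the Esrrb, Tbx3 and Tcl1 courses were set against the Nanog, Oct4 and Sox2 courses, 17 matrix genes were higher in the former and 1 was lower (31.5% of all genes were called, 16.6% higher and 14.9% lower). The largest differences were 1.34 for Mmp2 (SE 0.14, limma adjusted p = 3.3e-10), 1.24 for Col1a1 (SE 0.20, 4.5e-06), 0.96 for Mmp14 (SE 0.11, 1.5e-09) and 0.82 for Col1a2. Serpinh1 was the 1 lower gene (-0.35, SE 0.10, 4.1e-03). With the other Col1a1 probe set that difference was 0.17 and did not pass. Pcolce, Col2a1, Col5a1, Col6a2, Timp1 and Vcan, among the 17, each lost the call when at least 1 of the days was left out. The groups were not uniform, since Col1a1 was high after Sox2 knockdown and low after Tcl1 knockdown.

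Direct comparisons of pairs of knockdown courses (21 in all) showed where they differed. Oct4 knockdown had no gene higher and 15 lower than Sox2 knockdown (of all genes 2.62% were higher and 5.12% lower), and 1 higher and 14 lower than Tbx3 knockdown (6.85% and 11.6%). Esrrb knockdown had 17 higher and 0 lower than Oct4 knockdown (10.9% and 4.80%), and 17 higher and 0 lower than Nanog knockdown (8.59% and 9.27%). Nanog knockdown had 1 higher and 13 lower than Sox2 knockdown (5.78% and 4.97%). Between Nanog and Oct4 knockdown 3 genes were higher after Nanog knockdown (Plod2, Ctgf and Col2a1) and 2 lower (Pcolce and Serpinh1), against 8.68% and 3.74% of all genes. Esrrb knockdown exceeded Tbx3 knockdown in 4 genes (Col1a1, Bgn, Serpinh1 and Timp1) and was below it in 0 (1.89% and 0.742%). Sox2 and Tbx3 knockdown differed in 13 genes, with 6 higher and 7 lower after Sox2 knockdown (10.7% and 10.8%).

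Other genes of the matrix and its signalling were read from lists chosen by function. Of 25 other interstitial matrix genes tested, 7 were higher and 2 lower after Esrrb knockdown (36.0% called, against 12.7% of all genes) and after Sox2 knockdown (36.0% against 24.3%), and 14 higher and 3 lower under retinoic acid (68.0% against 51.0%). Cyr61, the close relative of Ctgf, was higher in all 7 knockdown courses, by 1.27 (Tbx3) to 2.29 (Esrrb), Oct4 knockdown included (1.55, SE 0.20, limma adjusted p = 1.5e-07). Bmp1, the protease that Pcolce enhances, was higher in all 7 as well, by 0.89 (Nanog) to 3.17 (Oct4). Of 13 basement membrane genes, which build the sheet under epithelia, Oct4 knockdown gave 3 higher and 3 lower (46.2% called against 17.4%), with Col4a1 higher by 1.81 and Nid2 lower by 1.98, and retinoic acid 8 higher (61.5% against 51.0%). Sparc, a collagen-binding matricellular protein, was higher by 1.01 (Tbx3) to 1.85 (Sox2) in all 7 knockdown courses.

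Among 16 matrix receptors 3 to 7 were higher and none lower in each knockdown course, that is 18.8% to 43.8%, where 9.12% to 24.3% of all genes were called. Itga3, an integrin chain for laminin, was higher by 1.55 (Esrrb), 1.54 (Mm343880) and 1.46 (Sox2). Of 13 TGF-beta ligands, receptors and feedback genes, 10 were higher under retinoic acid (76.9% against 27.5% of all genes), led by Tgfb2 (4.50) and Tgfb3 (4.38), and 4 after Esrrb (30.8% against 7.45%), 5 after Sox2 (38.5% against 12.1%) and 4 after Tbx3 knockdown (30.8% against 6.25%). Tgfb2 was higher after Sox2 (2.02), Esrrb (1.95), Nanog (1.09), Tbx3 (1.09) and Mm343880 knockdown (1.09). Tgfb1 was lower after Oct4 (-1.01), Mm343880 (-1.03), Nanog (-0.97) and Tcl1 knockdown (-0.85). Of 14 hypoxia response genes tested, 7 were lower and 1 higher after Sox2 knockdown (57.1% called against 24.3%), 5 lower and none higher after Nanog knockdown (35.7% against 22.0%), 4 lower and none higher after Oct4 knockdown (28.6% against 17.4%), and 12 lower and none higher under retinoic acid (85.7% against 51.0%).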

How the data were processed

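RNA of 70 samples was hybridised to the A and B arrays of the mouse 430 set. The values are probe set intensity signals as deposited by the authors, made with MAS5 per the submitters' processing notes (version not given in the sources used here) and scaled on shared control probe sets. Array medians were 236.1 to 382.9 on A and 64.5 to 128.5 on B, and 1 sample per course and day limits the precision. From these, log2(signal + pseudocount) was computed (pseudocount 63.1 on A, 21.8 on B), so differences of dim genes are understated. A gene was tested if its probe set of highest mean signal exceeded the array type's median (283.3 on A, 89.2 on B) on at least 3 of 70 arrays. Marker sums add the signals of unlike probe sets.

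limma 3.58.1 in R 4.3.3 fitted a natural cubic spline of day (3 degrees of freedom) per course, on A and B separately, with eBayes and Benjamini-Hochberg adjustment over all 14559 genes, after tests on simulated data. The matrix genes, the other lists and the tests were chosen with earlier results of these data known. Each matrix gene with a call is named, and genes of other lists by size of difference. Alternatives were another pseudocount, no filter, quantile normalization, other probe set choices, no spline, only the courses compared, each day left out, and, added after the values were seen, day as a block.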

Additional observations from a re-analysis of the deposited data

Results flagged for a closer look

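Effects of the same kind differed between the Esrrb, Tbx3 and Tcl1 courses and the Nanog, Oct4 and Sox2 courses for 18 matrix genes, by the limma test of the late difference between the 2 groups. On the log2 scale the differences were 1.34 for Mmp2, 1.24 for Col1a1, 0.96 for Mmp14, 0.82 for Col1a2, 0.77 for Ctgf, 0.75 for Col18a1, 0.73 for Fbln1, 0.70 for Thbs1, 0.68 for Fn1, 0.65 for Vcan and 0.64 for Plod2. They were 0.58 for Col2a1, 0.57 for Col5a2, 0.45 for Col6a2, 0.36 for Col5a1, 0.30 for Pcolce, 0.26 for Timp1 and -0.35 for Serpinh1. With other probe sets the Col1a1 difference was 0.17 and not called, the Col5a2 call was lost, and Fbln1 (-0.13) and Vcan (-0.12) turned in sign. Pcolce lost its call without day 0, 1, 2, 3, 4 or 6 (0.21 to 0.30) and under 4 other alternatives. Col2a1 (0.56 to 0.60) and Col5a1 (0.34 to 0.43) lost theirs without day 4, 5 or 6 and without the spline, Vcan without day 5 (0.51), Timp1 without day 6 (0.16) and with quantile normalization, Col6a2 without day 4 (0.31) and Serpinh1 without the spline. The Col1a1 value averages unlike courses, since Sox2 knockdown exceeded Tcl1 knockdown by 3.01 and Oct4 knockdown was below Sox2 knockdown by 3.20.

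Called in opposite directions against the empty vector in different courses, 2 genes also differed in the direct comparison. Col18a1 was lower after Oct4 than after Tbx3 knockdown (-1.47), and Plod2 was higher after Mm343880 than after Sox2 knockdown (1.71).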

How the results depend on the processing

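Of 116 late calls of matrix genes against the empty vector 70 held when each day was left out in turn and 60 in every alternative run. Without the spline the late calls numbered 5 (Mm343880), 6 (Nanog), 8 (Tbx3) and 5 (Tcl1), and the calls of change within a course 3 (Nanog), 2 (Oct4), 4 (Sox2), 6 (Tbx3), 4 (Tcl1) and 0 (empty vector). When every probe set of a gene was averaged, the late calls were 10 (Tbx3) and 6 (Tcl1) and the change calls 5 (Tcl1), and with only the courses compared the empty vector had 0. Leaving out each day gave late calls of 11 to 14 (Esrrb), 6 to 14 (Mm343880), 8 to 11 (Nanog), 6 to 9 (Oct4), 12 to 18 (Sox2), 8 to 16 (Tbx3), 7 to 11 (Tcl1), 22 to 29 (retinoic acid), 14 to 20 (between the groups of 3) and 21 to 32 (retinoic acid against knockdowns). Change calls ranged over 7 to 14 (Esrrb), 2 to 11 (Mm343880), 2 to 10 (Nanog), 3 to 6 (Oct4), 4 to 10 (Sox2), 1 to 12 (Tbx3), 4 to 7 (Tcl1), 0 to 4 (empty vector) and 16 to 28 (retinoic acid). In each knockdown course the lowest number of change calls came without day 0. Direction reversed with the probe set of highest mean rank for Vcan after Oct4 (0.041) and Fbln1 after Sox2 knockdown (0.22), Dcn under retinoic acid (late -0.054, change -0.16), the change of Fbln1 under retinoic acid (-0.21), Fbln1 (-0.13) and Vcan (-0.12) between the groups of 3, and Fbln1 under retinoic acid against the knockdowns (-0.23). It reversed without day 0 for the changes, over the days left out, of Fbln1 under retinoic acid (-0.36, highest 1.49) and Col18a1 after Nanog knockdown (0.0057, lowest -0.74), and without day 6 for Tnc after Mm343880 knockdown (-0.054, highest 1.62) and Pcolce under retinoic acid against the knockdowns (-0.046, highest 1.37). The cause was not tested. Courses share days but no replicate numbers, and an effect of each day common to all courses (day as a block, chosen after the values were seen) gave 8 (Oct4) to 17 (Sox2) late calls in the knockdown courses and 29 under retinoic acid, with Lox under retinoic acid (0.98, adjusted p = 0.054) the 1 call lost.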
